A study of Mus musculus with 20 samples.

Results

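The genes that build cholesterol, together with those that control the pathway through the transcription factor SREBP2, were followed in crypts of the mouse small intestine. The set holds 27 genes, listed by symbol, out of 23020 genes in the deposited table. All 27 were present, and 25 reached the mean level needed for testing. RNA of small intestinal crypts from 20 C57BL/6 mice was read in bulk at the 3' end of poly(A) transcripts, each molecule carrying its own identifier. The mice were wild-type or lacked Xiap (Xiap-/-), the gene of a protein that blocks cell death, and were either housed by genotype ("housed apart") or kept together for 4 weeks ("co-housed"). There were 6 wild-type and 4 Xiap-/- mice in the groups housed apart, and 5 of each genotype in the co-housed groups. No cage, age, sex or deleted part of Xiap is given in the labels, and every sample carries 1 of these genotypes with no other allele or agent named.

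Cells make cholesterol from acetyl-CoA. The mevalonate pathway first builds isoprenoid units, which are joined to farnesyl diphosphate and then to squalene, squalene is folded into lanosterol, and a chain of demethylations, reductions and shifts of double bonds turns lanosterol into cholesterol. SREBP2, encoded by Srebf2, is held in the endoplasmic reticulum with its escort Scap and the retention proteins Insig1 and Insig2 while sterols are plentiful. When sterols are scarce it moves to the Golgi, is cut there, and its free end enters the nucleus to switch on the genes of the pathway. In the intestine, crypt cells are known to make cholesterol for new membranes, while absorptive cells also take it up from food.

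The region just before a gene's start is where SREBP2 and its partners bind, the partners being NF-Y, which recognises CCAAT, and Sp1, which recognises the GC box GGGCGG. RefSeq promoter windows of build GRCm38.p6, running from 250 bases before to 50 bases after the start, were found for 22 of the 27 genes, the others being Fdft1, Fdps, Soat2, Sqle and Stard4. Some genes have several starts, so that these 22 genes have 28 windows, and a gene was counted when any of its windows held a match. The 22 include Idi1 and Mylip, which were not among the tested genes and held both of the boxes counted below. Both strands were searched. The CCAAT box, whose reverse complement is ATTGG, occurred in 20 of 22 genes (90.9%), all but Acat2 and Scap, against 43.1% of the 7069 tested genes with a window, counted in the same way. Window by window it was in 20 of 28 (71.4%), against 37.4% of all 32851 windows. All windows, here and below, include those of genes that were not tested, so this background differs from that of the tested genes. The GC box, reading CCGCCC on the opposite strand, occurred in 20 of 22 genes (90.9%), all but Pmvk and Ggps1, against 70.7% of tested genes, and in 23 of 28 windows (82.1%), against 35.7% of all windows. The sterol element form TCACNCCAC was found in 1 window, that of Hmgcs1, against 1.37% of tested genes and 1.24% of all windows. A related run, TCACCTCAG, searched for after the Cyp51 sequence had been seen, was in 1 window, that of Cyp51, against 0.382% of tested genes and 0.381% of all windows. None of these motifs overlapped another in the windows shown. These letters mark matches and not measured binding.

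The 250 bases before the start are shown for the 4 genes with a window that had the lowest genotype differences housed apart, so that these motifs can be seen in place. They were picked after their values were known. The windows lie at chr5:4104698-4104947 (minus strand) for Cyp51, chr8:64733579-64733828 (minus strand) for Msmo1, chr8:122443423-122443672 (minus strand) for Mvd and chr13:119690101-119690350 (plus strand) for Hmgcs1. Each is written 5′ to 3′ along its gene and ends at the base before the RefSeq start, with the matches above in capitals. The GENCODE gene spans given further on begin upstream of that start for Msmo1 and Cyp51, and 214 bases of the Msmo1 window and 49 of the Cyp51 window lie inside them, against 0 for Mvd and Hmgcs1.
Cyp51: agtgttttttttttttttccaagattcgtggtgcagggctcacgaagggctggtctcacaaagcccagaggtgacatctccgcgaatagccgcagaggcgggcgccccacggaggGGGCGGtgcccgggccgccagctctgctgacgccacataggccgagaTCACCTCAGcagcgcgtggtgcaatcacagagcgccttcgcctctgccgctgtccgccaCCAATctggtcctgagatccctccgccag
Msmo1: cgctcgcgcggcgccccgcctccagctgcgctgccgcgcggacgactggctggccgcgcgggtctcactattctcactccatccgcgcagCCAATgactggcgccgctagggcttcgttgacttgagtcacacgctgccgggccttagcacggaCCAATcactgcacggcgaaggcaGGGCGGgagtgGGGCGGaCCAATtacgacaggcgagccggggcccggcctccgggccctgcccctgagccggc
Mvd: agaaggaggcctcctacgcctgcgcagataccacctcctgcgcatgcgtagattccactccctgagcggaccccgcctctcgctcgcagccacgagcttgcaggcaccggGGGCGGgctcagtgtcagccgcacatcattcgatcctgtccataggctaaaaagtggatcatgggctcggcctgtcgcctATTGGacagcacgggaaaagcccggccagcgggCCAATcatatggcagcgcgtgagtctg
Hmgcs1: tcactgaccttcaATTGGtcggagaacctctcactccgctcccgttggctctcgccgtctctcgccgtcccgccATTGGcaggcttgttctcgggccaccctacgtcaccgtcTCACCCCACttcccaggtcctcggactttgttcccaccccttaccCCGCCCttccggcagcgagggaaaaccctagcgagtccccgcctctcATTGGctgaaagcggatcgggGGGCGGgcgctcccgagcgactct
In the Cyp51 window the run TCACCTCAG lay 88 to 80 bases before the start, between a GC box at 135 to 130 and a CCAAT box at 29 to 25. Msmo1 carried 3 CCAAT boxes and 2 GC boxes, Mvd 2 CCAAT boxes and 1 GC box, and Hmgcs1 3 CCAAT boxes and 2 GC boxes beside the element at 137 to 129.

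Some facts of the libraries touch the values below. No counts can be read from the deposited values, and sequencing depth is unknown. Depth was therefore judged by a proxy, the percentage of 1854 rare genes that stood above their own floor in a library. Housed apart, it ran from 4.58% to 14.9% in the wild-type group and from 9.55% to 32.1% in the Xiap-/- group, with the 32.1% in replicate 2. Among co-housed mice it ran from 7.50% to 11.1% for wild-type and from 4.69% to 12.4% for Xiap-/-. The Xiap transcript, which a 3' read can still show when another part of the gene is deleted and which therefore does not check the genotype, ranged from 6.56 to 7.08 in wild-type and from 6.25 to 6.48 in Xiap-/- mice housed apart. In co-housed mice these ranges were 6.36 to 6.84 and 6.29 to 6.91. All 10 Paneth cell markers and 7 of 8 markers of crypt base stem cells reached the level for testing, against 1 of 12 stromal and endothelial markers. All 15 absorptive enterocyte markers, 12 of 14 T cell markers and 5 of 10 myeloid markers reached it as well. Housed apart, the summed T cell markers had a median of 10.6 in both genotypes. The summed stem cell markers had 9.12 in wild-type and 9.21 in Xiap-/- mice. The extraction text of the labels speaks of liver, and 2 of 9 hepatocyte markers were high enough to test, of which Cps1 is also an enterocyte gene.

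All levels are normalized values on a log2 scale as deposited. Averaged over the 25 tested genes, libraries of mice housed apart had a level of 5.97 ± 0.07 (SD, n = 6) for the wild-type and 5.87 ± 0.06 (n = 4) for the Xiap-/- genotype. The co-housed groups had 5.94 ± 0.04 (n = 5) and 5.91 ± 0.08 (n = 5). Mice of 1 group differed widely in how many of the 25 genes stood above their own mean over 20 libraries. Housed apart, the number ran from 6 in replicate 6 to 21 in replicate 5 for wild-type mice and was 9, 2, 16 and 7 for Xiap-/- mice. It was 14, 18, 13, 12 and 11 in co-housed wild-type mice and 6, 4, 20, 16 and 8 in co-housed Xiap-/- mice. Both Xiap-/- groups and the wild-type group housed apart thus held libraries with most genes low beside libraries with most genes high. The median within-group SD was 0.14 for the 25 genes and 0.15 for all 9521 tested genes.

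**Figure D1:**
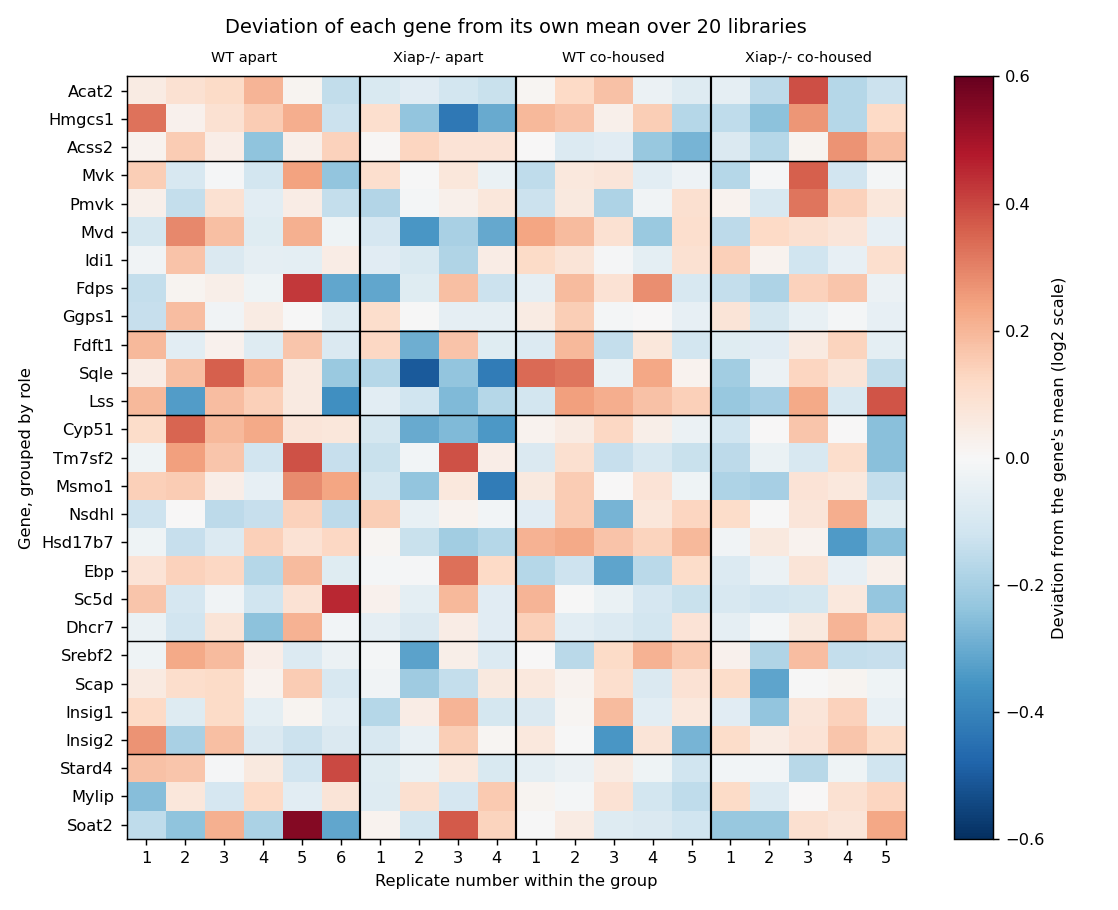
Deviation of each of the 27 genes (rows, grouped by role) from its own mean over 20 libraries, on the log2 scale (colour, -0.6 to 0.6), for each mouse (columns, by group and replicate number). Cyp51 and Sqle are below their means in all 4 Xiap-/- mice housed apart, and Xiap-/- replicate 2 housed apart has 23 of the 25 tested genes at or below their means.

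In mice housed apart, transcripts of Sqle and Cyp51, which act on squalene and on lanosterol, were lower in Xiap-/- crypts, and no gene of the pathway was higher. By limma with Benjamini-Hochberg adjustment over 9521 genes, 2 of 25 tested genes fell, where 0.158% of all tested genes did, and 0 rose, where 0.294% did (0.452% in either direction). At an unadjusted p under 0.05 these counts were 5 lower, where 7.99% of all tested genes were, and 0 higher, where 7.82% were. The differences ran from -0.44 to 0.12 with a median of -0.05, against -0.00 for all tested genes, and 18 of 25 lay below 0, as did 50.9% of all tested genes. These counts describe the list and are no test of it. Wild-type replicate 5 weighed heavily on the background: without it 697 of the 9521 genes were called housed apart, up from 43, while the members called stayed at 2 of 25.

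**Figure D2:**
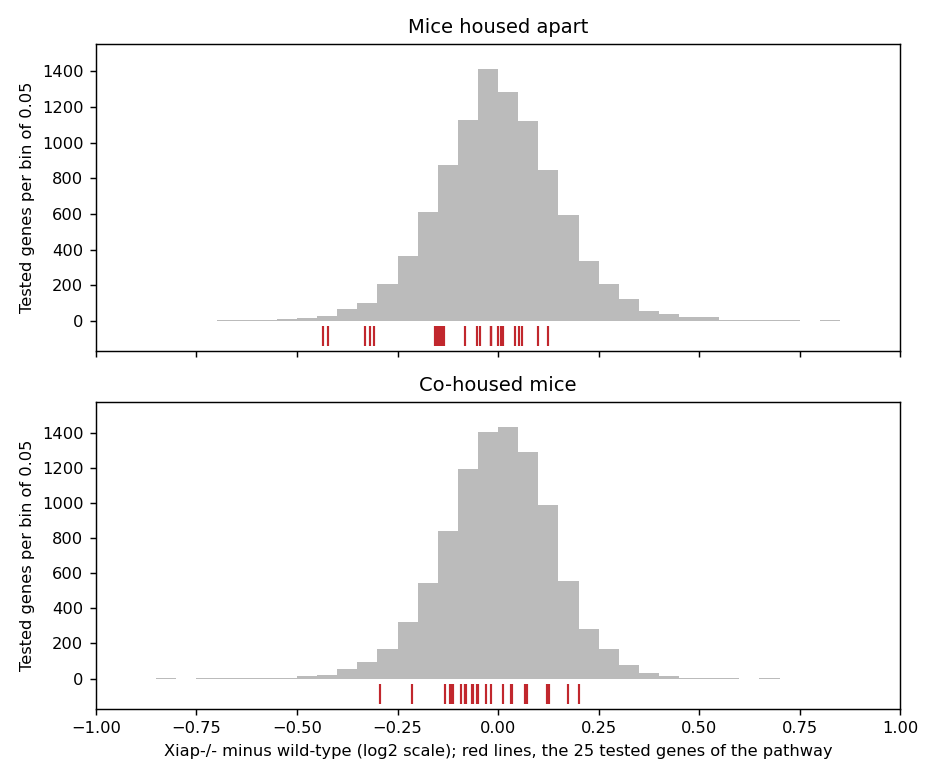
Differences between Xiap-/- and wild-type mice (x axis, log2 scale) of all 9521 tested genes (grey, number of genes per bin of 0.05) and of the 25 tested genes of the pathway (red lines), in mice housed apart (top) and co-housed (bottom). Housed apart, 5 red lines lie at -0.31 or lower, while the largest on the other side is 0.12. In co-housed mice the red lines run from -0.29 to 0.20.

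The pathway opens with Acat2, Hmgcs1 and Acss2. Hmgcs1, which condenses acetyl-CoA and acetoacetyl-CoA to HMG-CoA (chromosome 13, 119690379 to 119708260), ranged from 7.57 to 8.02 with a median of 7.82 in the 6 wild-type mice housed apart and was 7.80, 7.46, 7.27 and 7.39 in the 4 Xiap-/- mice. Xiap-/- replicate 1 stood among the wild-type values and the other 3 below all of them. The difference of -0.33 ± 0.11 (SE) was not called (adjusted p = 0.144). Co-housed, Hmgcs1 was 7.89, 7.87, 7.73, 7.85 and 7.52 in wild-type and 7.54, 7.45, 7.96, 7.53 and 7.82 in Xiap-/- mice, overlapping throughout, with a difference of -0.11 ± 0.11. Acat2, which makes acetoacetyl-CoA in the cytosol, differed by -0.16 ± 0.10 housed apart and -0.06 ± 0.09 co-housed. Its 4 Xiap-/- values housed apart lay close together, from 5.47 to 5.54, within a wild-type range of 5.46 to 5.81. Acss2, which makes acetyl-CoA from acetate, differed by 0.05 ± 0.09 and 0.17 ± 0.09.

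From mevalonate to farnesyl diphosphate, Mvd stood apart from its neighbours. Mvd, which decarboxylates mevalonate diphosphate to the first isoprenoid unit (chromosome 8, 122433601 to 122443422), ranged from 5.15 to 5.54 with a median of 5.33 in wild-type mice housed apart and was 5.15, 4.91, 5.06 and 4.95 in Xiap-/- mice. Of the Xiap-/- mice 3 stood under the whole wild-type range, and replicate 1 just inside it. The difference was -0.32 ± 0.10 (adjusted p = 0.114, not called). For Mvd the co-housed values were 5.49, 5.44, 5.35, 5.03 and 5.36 (wild-type) and 5.10, 5.38, 5.35, 5.33 and 5.21 (Xiap-/-), a difference of -0.06 ± 0.10. The kinases before it, Mvk and Pmvk, had differences housed apart of 0.04 ± 0.10 and 0.01 ± 0.09. Farnesyl diphosphate synthase, Fdps, had -0.08 ± 0.11 and Ggps1, which extends the chain for the attachment of lipids to proteins, had -0.00 ± 0.08. In co-housed mice these 4 genes had differences of 0.03 ± 0.10, 0.13 ± 0.09, -0.09 ± 0.11 and -0.05 ± 0.08 in that order. Idi1, which interconverts the isoprenoid units, lay below the minimum mean, at 1.30 to 1.65 over all 20 libraries, and was not tested.

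Between farnesyl diphosphate and lanosterol, Sqle was the gene with the lowest difference of the whole set. Sqle, the epoxidase that adds oxygen to squalene (chromosome 15, 59315077 to 59331192), ranged from 6.51 to 7.10 with a median of 6.86 in wild-type mice housed apart and was 6.57, 6.23, 6.50 and 6.32 in Xiap-/- mice. Only wild-type replicate 6, the lowest of its group, reached down into the Xiap-/- values. The means were 6.84 ± 0.20 (SD, n = 6) and 6.41 ± 0.16 (n = 4). Sqle fell by 0.44 on the log2 scale (SE 0.10, 95% interval of the difference -0.65 to -0.22, ratio 0.739, limma adjusted p = 0.0492). In co-housed mice it was 7.08, 7.06, 6.70, 6.97 and 6.76 in wild-type and 6.53, 6.70, 6.87, 6.81 and 6.59 in Xiap-/- mice. These groups overlapped, and the difference of -0.21 ± 0.10 did not pass (adjusted p = 0.404). Fdft1, which makes squalene, differed by -0.04 ± 0.10 and 0.01 ± 0.09 in the 2 housings, and Lss, which closes the rings of lanosterol, by -0.13 ± 0.12 and -0.12 ± 0.12.

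Of the 8 genes from lanosterol to cholesterol, Cyp51 separated the genotypes housed apart. Cyp51, the demethylase that acts on lanosterol (chromosome 5, 4081145 to 4104746), ranged from 7.08 to 7.36 with a median of 7.17 in wild-type mice housed apart and was 6.91, 6.71, 6.75 and 6.67 in Xiap-/- mice. No Xiap-/- mouse reached the lowest wild-type mouse, the only such case among the 25 genes, where 1.05% of all tested genes showed it in this direction and 0.819% in the other. From 7.18 ± 0.11 (SD, n = 6) to 6.76 ± 0.10 (n = 4), Cyp51 fell by 0.42 on the log2 scale (SE 0.09, 95% interval of the difference -0.60 to -0.25, ratio 0.746, limma adjusted p = 0.0192). Co-housed, it was 7.04, 7.06, 7.14, 7.05 and 6.98 in wild-type and 6.89, 7.02, 7.18, 7.02 and 6.76 in Xiap-/- mice, where the Xiap-/- values spread to both sides of the wild-type values. That difference was -0.08 ± 0.09 (adjusted p = 0.738).

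Msmo1, the methyl sterol oxidase that acts after Cyp51 (chromosome 8, 64718139 to 64733792), ranged from 6.78 to 7.11 with a median of 6.98 in wild-type mice housed apart and was 6.72, 6.59, 6.89 and 6.41 in Xiap-/- mice. All but Xiap-/- replicate 3 lay below the wild-type range, and the difference of -0.31 ± 0.09 did not pass (adjusted p = 0.110). Co-housed, Msmo1 was 6.89, 6.98, 6.83, 6.91 and 6.80 against 6.64, 6.63, 6.91, 6.89 and 6.68, a difference of -0.13 ± 0.09 with the groups overlapping. Hsd17b7, the reductase that completes the removal of the methyl groups (chromosome 1, 169949535 to 169969241), showed the reverse order of the housings. Housed apart, it ranged from 5.01 to 5.29 with a median of 5.18 in wild-type and was 5.16, 5.01, 4.94 and 4.98 in Xiap-/- mice, a difference of -0.14 ± 0.09. Co-housed, it was 5.36, 5.37, 5.31, 5.28 and 5.34 in wild-type and 5.13, 5.20, 5.17, 4.80 and 4.89 in Xiap-/- mice. The Xiap-/- mice all fell short of the lowest wild-type mouse, as for 1.75% of all tested genes in this direction and 1.33% in the other, yet the difference of -0.29 ± 0.09 did not pass (adjusted p = 0.178). For Hsd17b7 the genotype differences of the 2 housings did not differ past the threshold (-0.15 ± 0.12, adjusted p = 0.847).

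The other 5 genes of this stretch lay closer to 0. The sterol reductase Tm7sf2 had differences of -0.02 ± 0.10 in both housings, Nsdhl, which removes a carboxyl group, 0.10 ± 0.09 and 0.07 ± 0.09, and the isomerase Ebp 0.06 ± 0.09 and 0.12 ± 0.09. The desaturase Sc5d had -0.05 ± 0.10 and -0.08 ± 0.10, and Dhcr7, which carries out a last reduction, -0.02 ± 0.09 and 0.07 ± 0.09. None of these 5 genes had an unadjusted p under 0.05 between the genotypes in either housing.

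**Figure D3:**
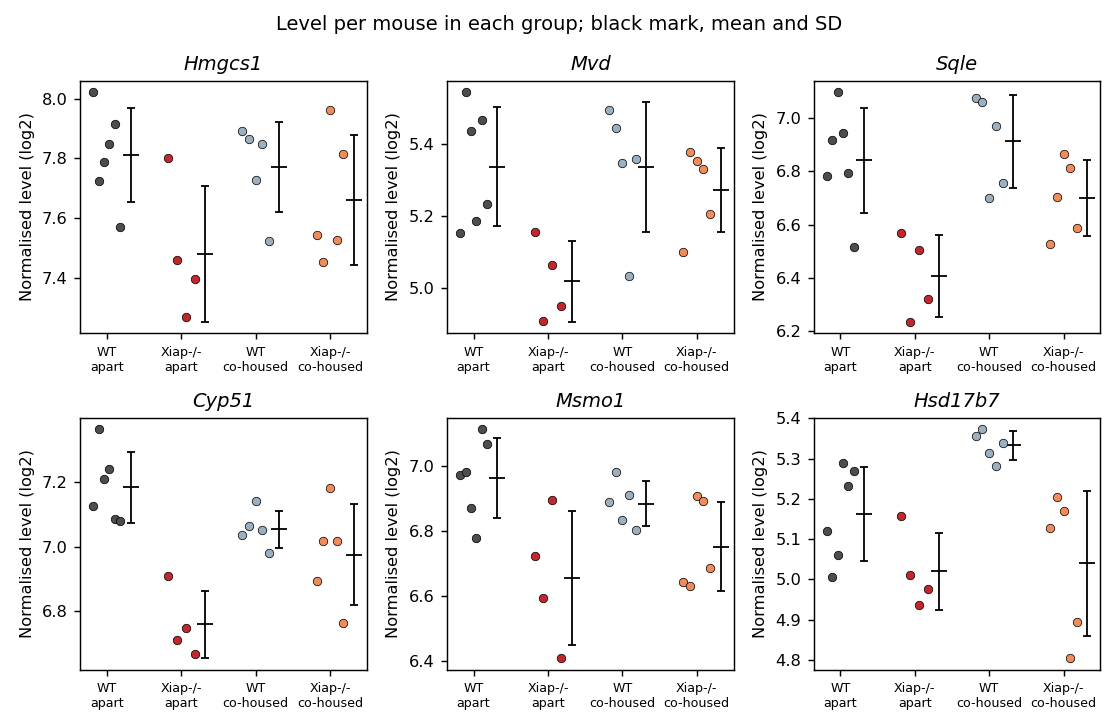
Normalized level (y axis, log2 scale, own range for each gene) of 6 enzymes in each mouse (points) of the 4 groups, with the mean and SD beside them (black). Cyp51 housed apart (7.08 to 7.36 against 6.67 to 6.91) and Hsd17b7 co-housed (5.28 to 5.37 against 4.80 to 5.20) are the panels in which the genotypes of a housing do not overlap.

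None of the control genes passed in either housing. Srebf2 itself ranged from 5.92 to 6.23 with a median of 6.01 in wild-type mice housed apart and was 6.00, 5.69, 6.04 and 5.92 in Xiap-/- mice, so that only Xiap-/- replicate 2 left the wild-type range by more than rounding. Its differences were -0.15 ± 0.10 housed apart (adjusted p = 0.475) and -0.11 ± 0.09 co-housed (adjusted p = 0.656). The escort Scap had differences of -0.14 ± 0.09 and -0.08 ± 0.09. Insig1, a retention protein that is itself a known target of SREBP2, had -0.02 ± 0.09 (95% interval -0.20 to 0.17) and -0.05 ± 0.09 (-0.23 to 0.13). Insig2 had 0.01 ± 0.10 housed apart. In co-housed mice Insig2 was 5.85, 5.79, 5.44, 5.87 and 5.51 in wild-type and 5.90, 5.84, 5.87, 5.95 and 5.90 in Xiap-/- mice, where 2 wild-type mice were low and the Xiap-/- values lay close together, a difference of 0.20 ± 0.10 (adjusted p = 0.400).

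Among genes that move, store or dispose of sterols, Stard4, a cytosolic sterol carrier, had differences of -0.15 ± 0.09 housed apart and -0.03 ± 0.09 co-housed. Soat2, which esterifies cholesterol for storage and for lipoproteins, had 0.12 ± 0.13 and 0.04 ± 0.13. It varied most within groups of all tested genes of the set (within-group SD 0.23), from 6.41 to 7.27 in wild-type mice housed apart. Mylip, a ubiquitin ligase that marks lipoprotein receptors for breakdown, lay below the minimum mean, at 2.24 to 2.66, and was not tested.

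**Figure D4:**
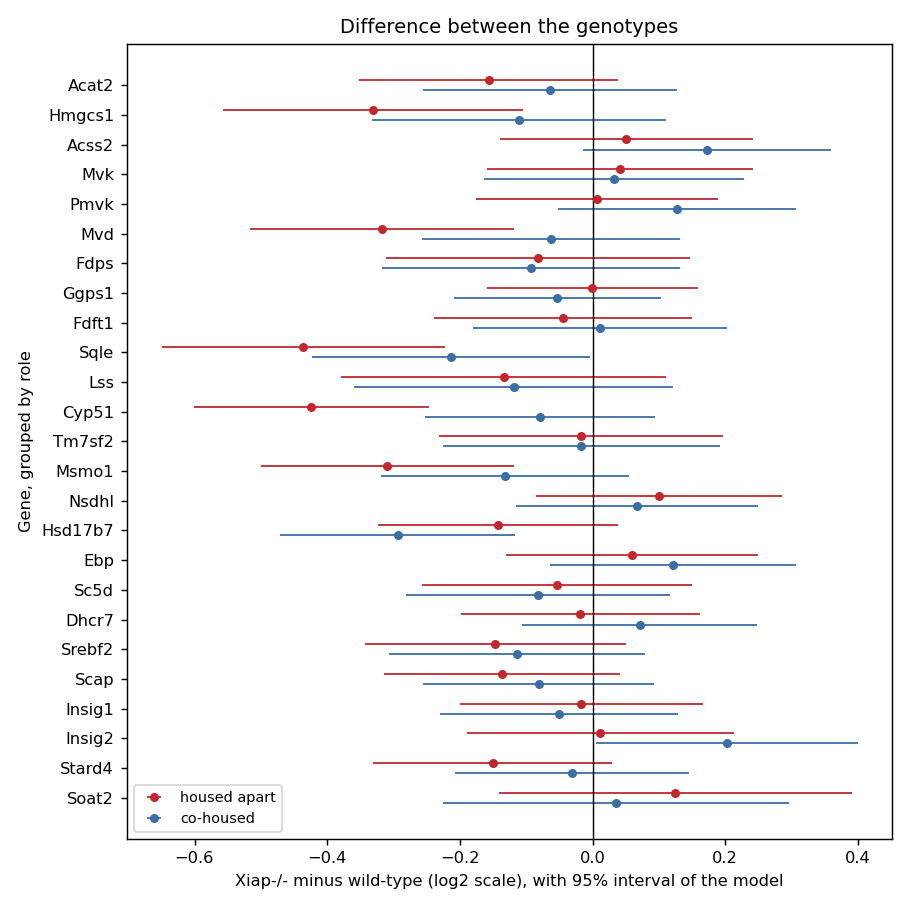
Difference between Xiap-/- and wild-type mice (x axis, log2 scale) with the 95% interval of the limma model for the 25 tested genes (rows, by role), in mice housed apart (red) and co-housed (blue). The intervals of Hmgcs1, Mvd, Sqle, Cyp51 and Msmo1 lie below 0 housed apart, and of these that of Sqle also does co-housed.

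The calls housed apart rested on few mice. Cyp51 did not pass without wild-type replicate 2 (adjusted p = 0.0570), wild-type replicate 4 (0.0534), or Xiap-/- replicate 2 (0.0900), 3 (0.0687) or 4 (0.128), and Sqle passed in 3 of 20 fits with 1 library left out, those without wild-type replicate 5 (adjusted p = 0.0119), wild-type replicate 6 (0.0117) or Xiap-/- replicate 1 (0.0466), with 0.0507 to 0.181 in the others. With the depth proxy as a covariate the differences were -0.38 for Cyp51 (adjusted p = 0.699) and -0.36 for Sqle (adjusted p = 0.796). The part of depth in these differences was not tested.

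Few cell type markers passed between the genotypes housed apart, and the counts below describe the direction of their differences. Of 13 markers of dividing cells 10 lay below 0 (median -0.07), 0 passing, and their summed level was 10.1 to 10.5 in wild-type and 9.99 to 10.3 in Xiap-/- mice. Of 15 absorptive enterocyte markers 11 lay above 0 (median 0.08, 0 passing), with summed levels of 15.4 to 16.1 and 15.5 to 16.0. All 10 enteroendocrine markers lay above 0 (median 0.22), with summed levels of 10.1 to 10.7 and 10.4 to 11.0. Of these 1 passed, the granule protein Chgb, named after its values were seen. All 7 tested of 8 tuft cell markers also lay above 0 (median 0.17, 0 passing), with 6.81 to 7.11 and 7.08 to 7.26. The 3 tested of 8 B and plasma cell markers lay below 0 (median -0.60, 0 passing), with 5.91 to 7.17 and 5.91 to 6.20. Of 10 Paneth cell markers 7 lay above 0 (median 0.14, 0 passing), with 15.3 to 15.7 and 15.5 to 15.8. Of the 2 tested hepatocyte markers 1 rose, the carrier protein Ttr, which enteroendocrine cells are also known to make (0.42 ± 0.10, limma adjusted p = 0.0346), and their summed level was 8.97 to 9.34 and 8.94 to 9.32. In these bulk samples fewer cells of a type and less RNA per cell cannot be told apart, and the part of the cell makeup in the sterol genes was not tested.

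In co-housed mice 0 of 25 genes passed by limma, where 0.0315% of all tested genes did (0.021% higher, 0.0105% lower). At an unadjusted p under 0.05, Hsd17b7 and Sqle were lower (6.59% of all tested genes) and Insig2 was higher (5.43%). The median difference was -0.05, against 0.00 for all tested genes, and 16 of 25 genes lay below 0 (48.9% of all tested genes). Of the marker lists, all 12 tested T cell markers lay above 0 between the co-housed genotypes (median 0.22, 0 passing). So did 8 of 10 Paneth cell markers (median 0.07) and 6 of 7 tested goblet cell markers (median 0.13), with 0 passing. The part of these cell types in the sterol genes was not tested. The differences between the genotypes were set against each other across the housings by the interaction term of the same model. None of the 25 passed, where 0.0105% of all tested genes did. Cyp51 had the largest difference of this kind, 0.34 ± 0.12 toward 0 in co-housed mice (95% interval 0.10 to 0.59, adjusted p = 0.548), and it alone had an unadjusted p under 0.05 (3.84% of all tested genes were higher and 3.2% lower). For Sqle the value was 0.22 ± 0.15, for Mvd 0.26 ± 0.14, for Hmgcs1 0.22 ± 0.16 and for Msmo1 0.18 ± 0.13. The genotype differences of the sterol genes are therefore not shown to differ between the housings. In the interaction term all 12 tested T cell markers lay above 0 (median 0.20, 0 passing).

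Averaged over both housings, the same pair of genes was called. Sqle had a difference of -0.32 ± 0.07 (95% interval -0.47 to -0.18, limma adjusted p = 0.0233) and Cyp51 one of -0.25 ± 0.06 (-0.38 to -0.13, adjusted p = 0.0297). These 2 of 25 genes compare with 0.945% of all tested genes lower and 1.11% higher (2.06% in either direction), and 17 of 25 lay below 0, where 50.6% did. Without 1 library, neither gene passed when Xiap-/- replicate 2 (adjusted p = 0.0552 for Sqle and 0.0620 for Cyp51) or 4 (0.0624 and 0.0802) housed apart, co-housed wild-type replicate 2 (0.0522 and 0.0546), or co-housed Xiap-/- replicate 1 (0.0518 and 0.0542) or 5 (0.0555 and 0.0734) was left out. Cyp51 alone did not pass without co-housed wild-type replicate 3 (0.0672). At an unadjusted p under 0.05 the genes Hsd17b7, Msmo1, Hmgcs1 and Mvd joined them, 6 lower in all (10.2% of all tested genes) and 0 higher (10.3%). Their adjusted p-values were 0.0588 for Hsd17b7, 0.0651 for Msmo1, 0.104 for Hmgcs1 and 0.110 for Mvd. This average shares its mice with both single comparisons. Without wild-type replicate 5 housed apart, 4 of 25 genes and 956 of all tested genes were called in it, up from 196. Of the marker lists, all 10 enteroendocrine markers lay above 0 in the average (median 0.19), with 1 called, the hormone gene Gcg (0.31 ± 0.08, limma adjusted p = 0.0365), as did all 7 tested tuft cell markers (median 0.11, 0 passing). Of 15 absorptive markers 10 lay above 0, while the brush border peptidase Anpep fell (-0.29 ± 0.08, limma adjusted p = 0.0497). Both tested hepatocyte markers lay above 0, with Ttr called (0.26 ± 0.07, limma adjusted p = 0.0359), and 9 of 13 markers of dividing cells lay below 0. These marker genes were named after their values were seen, and their part in the sterol genes was not tested.

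No gene of the set passed for housing in either genotype. In wild-type mice 0 of 25 passed by limma, where 0% of all tested genes did, and 16 of 25 lay below 0, where 51.9% did. The differences ran from -0.18 ± 0.09 for Ebp (adjusted p = 0.484) to 0.17 ± 0.08 for Hsd17b7 (adjusted p = 0.488), and these were the 2 genes with an unadjusted p under 0.05 (5.3% of all tested genes for higher and 4.87% for lower). Among Xiap-/- mice 0 of 25 passed, where 0.147% did (0.0525% higher, 0.0945% lower), and 9 of 25 lay below 0, where 49.8% did. Sqle stood 0.29 ± 0.11 higher in co-housed than in separately housed Xiap-/- mice (adjusted p = 0.318), Mvd 0.25 ± 0.10 (adjusted p = 0.347) and Cyp51 0.22 ± 0.09 (adjusted p = 0.370), 3 genes at an unadjusted p under 0.05 where 5.41% of all tested genes were higher, and 0 were lower where 5.85% were. The Xiap-/- mice housed apart enter both this comparison and that of the genotypes housed apart. Groups overlapped for all 25 genes in both genotypes, where in wild-type mice 0.305% and in Xiap-/- mice 2.65% of all tested genes were higher without overlap, and 0.221% and 2.98% lower. The 15 absorptive markers all lay below 0 in this comparison of Xiap-/- mice (median -0.20, 0 passing). So did all 10 enteroendocrine markers (median -0.22, 0 passing) and all 7 tested tuft cell markers (median -0.14), of which Ltc4s, a synthase of leukotrienes, fell (-0.52 ± 0.11, limma adjusted p = 0.0283). Of 13 markers of dividing cells 11 lay above 0 (median 0.14, 0 passing). Between the housings of wild-type mice 12 of 15 absorptive (median -0.24) and 8 of 10 enteroendocrine markers (median -0.16) lay below 0. There 5 of 7 tested tuft cell markers (median 0.03) and 7 of 13 markers of dividing cells (median 0.02) lay above 0. All 12 tested T cell and 7 tested goblet cell markers lay below 0 in wild-type mice. In Xiap-/- mice 10 of 12 and 4 of 7 did. No gene of these lists passed in wild-type mice. The part of these cell types in the sterol genes was not tested. Over both genotypes 0 of 25 passed for housing, where 0.179% did (0.0735% higher, 0.105% lower), and 9 of 25 lay below 0, where 50.5% did. At an unadjusted p under 0.05, Sqle was higher with co-housing (0.18 ± 0.07, adjusted p = 0.247; 6.44% of all tested genes), and Ebp and Tm7sf2 were lower (7.96%).

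**Figure D5:**
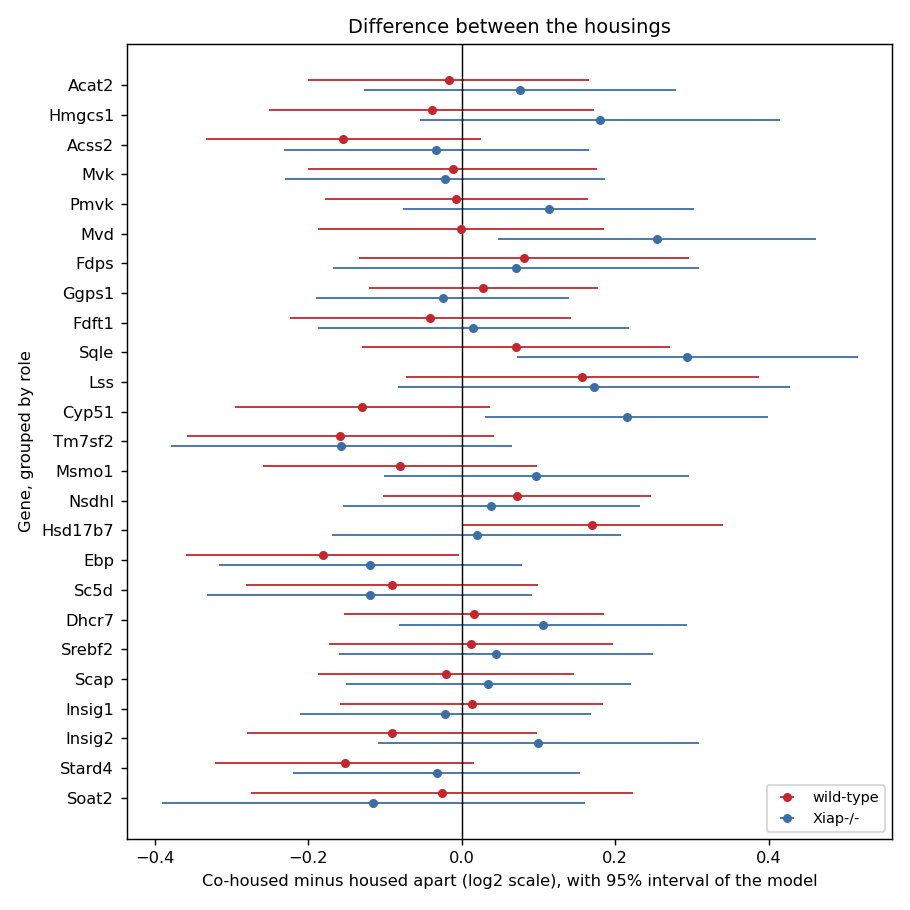
Difference between co-housed and separately housed mice (x axis, log2 scale) with the 95% interval of the limma model for the 25 tested genes (rows, by role), in wild-type (red) and Xiap-/- mice (blue). The Xiap-/- intervals of Mvd, Sqle and Cyp51 lie above 0 (0.25, 0.29 and 0.22), and 0 of 25 genes passed in either genotype.

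Neighbouring pathways were counted in the same fit. Of 28 further genes of sterol synthesis and its regulation 23 were tested, with a median difference of 0.01 housed apart and 0 called in either direction. Averaged over housings 1 of them fell, Vcp, an ATPase that pulls marked proteins out of the endoplasmic reticulum, with a difference of -0.31 ± 0.08 (limma adjusted p = 0.0301). Its means were 8.97 (wild-type) and 8.62 (Xiap-/-) housed apart, with 9.07 and 8.79 co-housed. Of 25 genes of sterol uptake, transport and efflux 20 were tested, with a median of 0.02 housed apart, 0 called in each single comparison and 1 lower in the average over housings. The fatty acid genes under SREBP1 had 0 of 14 tested called in each of the 7 comparisons, and housed apart their median was -0.08 with 9 of 14 below 0. Among them the citrate carrier Slc25a1 had a difference of -0.11 ± 0.10 and the fatty acid elongase Elovl6 -0.18 ± 0.11 housed apart. Elovl6 stood 0.29 ± 0.07 higher with co-housing over both genotypes and did not pass (adjusted p = 0.0776). The isoprenoid branch, which leads to dolichol and to prenylated proteins, had 0 of 14 tested called in each comparison, with Nus1, a subunit of the enzyme that builds dolichol, at -0.18 ± 0.10 and Fnta, a subunit of the protein prenyltransferases, at 0.05 ± 0.09 housed apart.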

How the data were processed

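The authors deposited 1 table of normalized values on a log2 scale, for 23020 genes and 20 libraries. The submitters' processing notes name DESeq2 1.18.1 and build GRCm38.p6. How the values were transformed is not given in the sources used here, nor was it tested whether small values are compressed. Depth is unknown, so no counting intervals are given. The values were used as deposited, without a pseudocount, and fitted with limma 3.58.1 (R 4.3.3). Genes with a mean of at least log2 of 10 (9521) entered 1 model of the 4 group means (lmFit, variance trend, robust empirical Bayes, 16 residual degrees of freedom), and 7 comparisons were drawn from it. Two-sided p-values were adjusted by Benjamini-Hochberg across the 9521 genes, with 0.05 as the threshold for a call. In the report, errors of differences are model standard errors, and those of group means are SDs over mice. The p-values measure the spread between these samples, taken as independent although no cage is named, and 0 pairs of libraries were identical. The depth proxy is the percent of 1854 rare genes (mean below -3) lying more than 0.015 above their median in a library. A marker list's summed level is the log2 of its members' summed values. Positions are from GENCODE M21 on GRCm38, and promoters from RefSeq. The model was run on simulated data with independent normal noise and shifted genes. These data held no depth differences or shared library effects, so the run does not cover them. The members and gene lists were chosen with earlier results of these data known. Genes named are the 27 members and, of each pathway list, up to 4 called genes or else the 2 with the highest mean. Some genes of the sterol lists are not reported here by name. Alternatives were other filters, scalings, variance models, a replicate block, the depth proxy as covariate and leaving out each library.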

Additional observations from a re-analysis of the deposited data

Results flagged for a closer look

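Of 108 groups of values (27 genes in 4 groups), 4 held a mouse far from the others of its group by Dixon's criterion, where chance gives about 1 in 20. Acat2 in co-housed Xiap-/- replicate 3 was the highest of its group, at 5.99 against 5.43 to 5.55 in the other mice. That mouse had 20 of the 25 tested genes above their means. Acss2 in wild-type replicate 4 housed apart was the lowest of its group, at 5.79 against 6.05 to 6.18. For Lss the lowest value of the co-housed wild-type mice, 4.67 in replicate 1, lay under the 4.93 to 5.03 of the others. Tm7sf2 in co-housed wild-type replicate 2 was the highest of its group, at 5.19 against 4.96 to 5.01. None of these 4 genes passed in any of the 7 comparisons.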

How the results depend on the processing

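None of the 23 single differences rerun (members at an unadjusted p under 0.05) changed direction in an alternative. Among these reruns 46 lost a call and 15 gained one. The other members' differences were not rerun. The 7 counts of members called, which have no direction, were rerun as well. Housed apart, 2 members were called. The number was 1 with a minimum mean of 5, with libraries centred on their median and with quantile normalization, 0 when only the groups compared were fitted and 0 with the depth proxy as a covariate, and 4 with array quality weights (Hmgcs1 and Msmo1 joined). It was 0 without the libraries with the highest and lowest depth proxy, an alternative chosen after seeing the data, and 0 to 2 with each library left out. Array quality weights called 1 member between the co-housed genotypes (Hsd17b7, adjusted p = 0.0420) and 1 between the housings of Xiap-/- mice (Sqle, adjusted p = 0.0276), where 0 were called otherwise. Counts over all genes with the weights are not given for these comparisons, so these calls are no result about the members. Averaged over housings, 2 were called, 1 with no low-value filter, 5 with array quality weights, 0 with the depth covariate, 1 without the libraries with the highest and lowest depth proxy, and 0 to 4 with each library left out (4 without wild-type replicate 3 or 5 housed apart). A minimum mean of 5 added Hsd17b7 to the members called in the average (limma adjusted p = 0.0489). Counts over all tested genes are given only for the alternatives named below, so the other member counts are no result about the members. Counts over all genes moved too, from 43 housed apart to 385 with the weights and 3 with the covariate, and from 196 in the average to 791 and 6. With each library left out they ran from 9 to 697 housed apart and from 36 to 956 in the average, both highest without wild-type replicate 5 housed apart. The cause was not tested. Replicate numbers were not taken as pairs in the main model. Same-numbered mice of the genotypes housed apart correlated at 0.0748 to 0.246, and 4 of 8 matched best with their own number. For the co-housed genotypes the correlations were -0.135 to 0.128, with 1 of 10. These values do not decide whether the numbers pair mice. With a replicate block 2 members were called housed apart and 2 in the average, with Sqle at -0.53 (adjusted p = 0.00319) and Cyp51 at -0.48 (adjusted p = 0.00226) housed apart, and 350 of all genes were called. Unknown depth limits what can be said of the lowest members.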
